A study of Mus musculus with 30 samples.

Results

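AtT-20 cells, a line from a mouse pituitary tumour of the corticotrope lineage, were compared after 3 h with corticotropin-releasing hormone (CRH) and after 3 h without it. The comparison comprised the 6 two-colour arrays labelled as 3 h, out of 30 arrays at 5 time points. Both groups had been kept without fetal calf serum for 18 h and were then held in plain medium, and the treated dishes received 100 nM human/rat CRH. Untreated cells were harvested at the same hour. RNA from both groups was amplified, coupled to Cy3 or Cy5 and hybridised together, 3 times with the CRH-treated sample in Cy3 (the Cy3 orientation) and 3 times with it in Cy5 (the Cy5 orientation). All 6 hybridisations reuse a single treated and a single untreated extract, which makes them technical repeats whose spread covers labelling, hybridisation and scanning, while the response of a second culture at 3 h was not measured. The model is a single tumour line in culture without the portal blood, glucocorticoids or neighbouring cells of a pituitary. Values below are log2 ratios, treated over untreated, at 3 h unless another time is named, and in such a ratio more RNA per cell and more cells holding that RNA cannot be told apart.

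CRH is the hypothalamic peptide that makes corticotropes secrete ACTH. It binds CRHR1, a receptor coupled to the stimulatory G protein, and raises cyclic AMP, which activates protein kinase A and the transcription factor CREB, while calcium entry and the MAP kinases ERK carry further branches of the signal. ACTH is cut from the Pomc precursor, whose gene is controlled by Nr4a factors, AP-1, Tbx19, Pitx1 and Neurod1. Immediate early genes answer first and are usually back near their starting level while later genes, among them enzymes and parts of the secretory route, are being transcribed.

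The upstream sequences of 4 genes on which the results turn are shown because CREB binds an 8-letter palindrome, the cyclic AMP response element (CRE), or its core. They are Odc1 and Srxn1, higher in CRH-treated RNA, Neurod1, lower in it, and Pomc, the precursor gene itself. Each is the run of 250 bases before the RefSeq transcription start in build GRCm38.p6, read on the strand of the gene, at chr12:17544623-17544872 (plus strand), chr2:152105274-152105523 (plus strand), chr2:79456637-79456886 (minus strand) and chr12:3954695-3954944 (plus strand). Capitals mark the CRE core, TGACG or its reverse complement CGTCA.
Odc1: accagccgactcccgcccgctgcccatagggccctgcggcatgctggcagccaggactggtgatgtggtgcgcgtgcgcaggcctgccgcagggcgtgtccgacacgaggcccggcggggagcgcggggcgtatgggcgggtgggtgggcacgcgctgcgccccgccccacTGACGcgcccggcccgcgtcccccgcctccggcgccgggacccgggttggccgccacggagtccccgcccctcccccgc
Srxn1: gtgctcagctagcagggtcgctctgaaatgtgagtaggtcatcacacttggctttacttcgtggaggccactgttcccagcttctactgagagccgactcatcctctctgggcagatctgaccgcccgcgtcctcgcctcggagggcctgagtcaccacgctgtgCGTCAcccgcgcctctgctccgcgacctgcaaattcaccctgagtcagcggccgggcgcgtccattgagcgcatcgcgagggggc
Neurod1: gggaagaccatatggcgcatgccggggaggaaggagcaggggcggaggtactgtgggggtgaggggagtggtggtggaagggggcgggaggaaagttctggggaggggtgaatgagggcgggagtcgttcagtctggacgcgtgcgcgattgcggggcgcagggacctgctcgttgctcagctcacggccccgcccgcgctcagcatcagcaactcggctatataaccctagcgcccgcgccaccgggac
Pomc: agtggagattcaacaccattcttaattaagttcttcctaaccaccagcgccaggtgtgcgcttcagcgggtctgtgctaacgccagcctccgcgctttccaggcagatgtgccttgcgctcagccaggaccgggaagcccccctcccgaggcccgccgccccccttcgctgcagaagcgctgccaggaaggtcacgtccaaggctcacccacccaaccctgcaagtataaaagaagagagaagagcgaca
The core of Odc1 begins 79 bases before the start and that of Srxn1 begins 85 bases before it, whereas Neurod1 and Pomc hold no such letters in this window. Of 32851 windows of this length in the table, 17.8% hold the core on either strand and 1.55% hold the full palindrome TGACGTCA, in which the core occurs on each strand. Among the 20 gene symbols of the spots called below, 12 had a window that could be read here, of which 5 held the core and 0 the palindrome. The 5 were Odc1, Srxn1, 0610012G03Rik, 2610042L04Rik and Rtn4r, the last called lower on a spot without a usable ratio. Rpl41, Mmp7, Misp3, Spats2l, Aspdh and 4930555G01Rik, all called higher, held no core. These matches describe letters, not binding, and cover only exact cores within this window. The study states that the Pomc promoter holds a cyclic AMP response element and an AP-1 site.

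The 3 h arrays were readable but strongly coloured by the dyes. Median spot intensities ran from 653.8 to 1196 per channel over a median local background of at most 28.7, and 14375 spots lay above the dimmest 10% in both channels of all 30 arrays. Log2 ratios of arrays with the same dye orientation correlated at r from 0.444 to 0.637 across spots, and those of opposite orientation at r from -0.326 to -0.227. The means of the 2 orientations ran against each other at r = -0.416, within the range of -0.634 to -0.288 at the other time points. The median size of the dye part, taken as 0.5 of the difference between the orientation means, was 0.15, against a median of 0.10 for the size of the mean ratio. Spots share print tips and dyes, so these correlations only describe the arrays.

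Most markers of the labelled cell type were bright on the 3 h arrays. Pomc lay at the 94.4th percentile of spot intensity, Chgb, a granule protein, at the 98.5th, the brighter spot of Cpe, the carboxypeptidase that trims hormone precursors, at the 97.7th and Pitx1 at the 96.2th. Tbx19, the factor that specifies corticotropes, was dim, at the 10.7th percentile, and the other readable Cpe spot lay at the 19.5th. In all, 7 of 9 corticotrope markers had a readable spot, and no spot was matched to Crhr1 or Pcsk1. Of 11 markers of the other pituitary lineages only Gh had a readable spot, at the 1.81th percentile. The 6 readable spots of fibroblast and matrix markers lay between the 0.264th and the 44.3th percentile. Their 3 h ratios ran from -0.27 to 0.15, and 0 of them was called. The fuller fibroblast and matrix list reached the 95.2th percentile, and its member Sparc, a collagen-binding matrix protein, lay at the 76.3th with a mean of 0.31 (adjusted p = 0.0752). Of the leukocyte markers, Cd3e lay at the 79.4th and Cd14 at the 37.3th percentile, and 0 was called.

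After 3 h of CRH the response was small and pointed mostly upward: the highest spot was 2.26-fold higher in CRH-treated RNA, and the lowest mean ratio was -0.73. A spot was called when its mean over both orientations reached 1.5-fold and all 6 arrays had the same sign. This rule called 23 of 14375 spots (0.16%), 21 higher (0.146%) and 2 lower (0.0139%). Named genes with higher RNA were Hspa8, a constitutive chaperone, Mmp7, a secreted protease, Lyve1, a hyaluronan receptor, Odc1, the rate-limiting enzyme of polyamine synthesis, Syt4, a vesicle protein of the synaptotagmin family, and Srxn1, which restores oxidised peroxiredoxins. The transcription factor Neurod1 was lower. When the 10th intensity percentile was taken off each channel as background, 93 spots met the rule, 66 higher and 27 lower. One sign on all 6 arrays, whatever the size, was seen for 1000 spots (6.96%), 665 higher (4.63%) and 335 lower (2.33%).

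**Figure D1:**
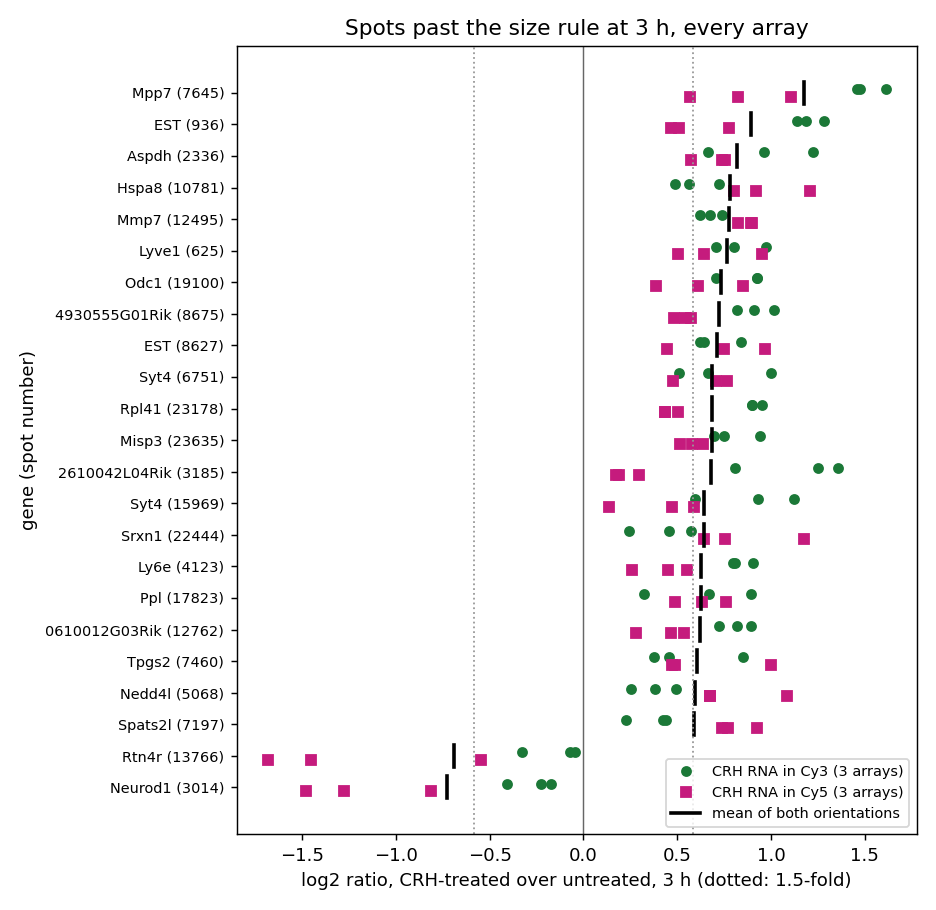
Log2 ratio (treated over untreated, 3 h) on each of the 6 arrays for the 23 called spots, with round markers for treated RNA labelled in Cy3, square markers for treated RNA labelled in Cy5 and bars for the mean of both orientations. Mpp7 is farthest to the right at a mean of 1.18, Neurod1 and Rtn4r are the only spots left of 0, and several spots have their 2 orientations well apart.

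The plot of both dye orientations shows the called spots against all others. Of the 23, 10 reached 1.5-fold in each orientation taken alone, and all 10 were higher. The mean over all spots had its quartiles at -0.11 and 0.08 and its median at -0.02.

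**Figure D2:**
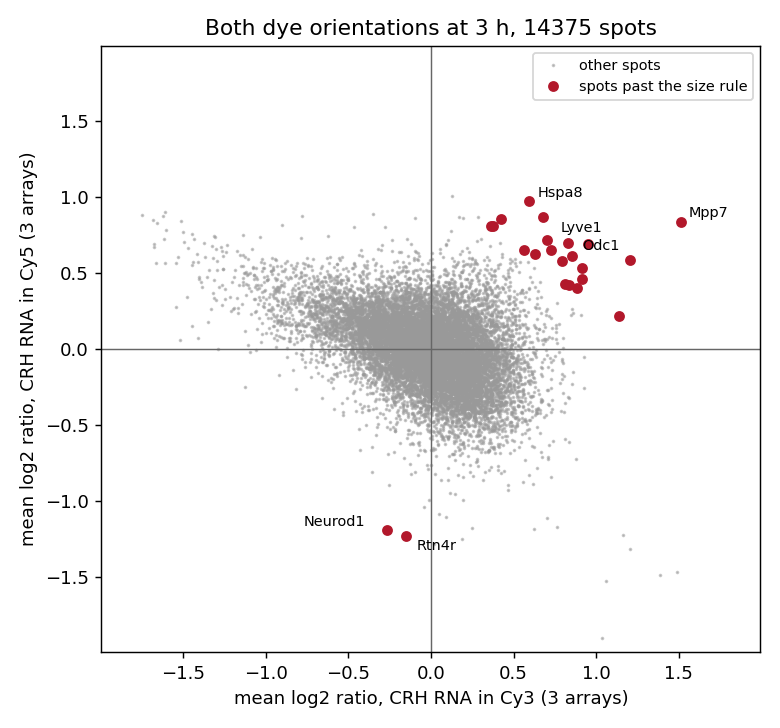
Mean log2 ratio of 14375 spots at 3 h with the treated sample in Cy3 (horizontal axis) or in Cy5 (vertical axis), 3 arrays each, with called spots in red. The grey cloud slopes downward (r = -0.416), and 21 called spots lie above 0 on both axes and 2 below 0 on both.

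A limma test over the 30 hybridisations set each 3 h mean against 0, which compares the 2 extracts and not the conditions. At an adjusted p under 0.05 it passed 772 spots (5.37%), 409 higher (2.85%) and 363 lower (2.53%). All 23 called spots were among them, but they had been called on the same 3 h means, so this overlap is no separate support. The higher spots had the same direction in both orientations in 388 of 409 cases. For the lower spots this held in 121 of 363, and 20 of the 363 lay at the scanner limit on every 3 h array.

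Among the cyclic AMP targets Odc1 had the highest mean. In the Cy3 orientation its ratios were 0.93, 0.93 and 0.71, and in the Cy5 orientation they were 0.61, 0.85 and 0.39. All 6 arrays were above 0 and the orientations overlapped, with a mean of 0.73 ± 0.087 (SE over hybridisations), which is 1.66-fold (limma, adjusted p = 5.16e-06).

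Syt4, which sits on vesicles of neuroendocrine cells, had 3 readable spots with differing ratios. The first ranged from 0.48 to 1.00 with a median of 0.69 and a mean of 0.69, and the second ranged from 0.14 to 1.12 with a mean of 0.64. Both were called, while the brightest of the 3 had a mean of -0.03.

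Fosl2, an AP-1 factor of the Fos family, was close to the size rule. Its brighter spot, deposited under the name B-cell CLL/lymphoma 7C and assigned to Fosl2 by the study, ran from 0.36 to 0.66 with a mean of 0.51 (1.42-fold, adjusted p = 0.000644). The orientations gave 0.49 and 0.52. The dimmer one, deposited as an EST with weak similarity to septin 3, had a mean of 0.45 with 1 array at -0.07.

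Pomc itself was above 0 on all 6 arrays without reaching 1.5-fold. Its ratios were 0.53, 0.50 and 0.84 in the Cy3 orientation and 0.18, 0.16 and 0.13 in the Cy5 orientation, a mean of 0.39 (1.31-fold, adjusted p = 0.00176). Every Cy3 value lay above every Cy5 value. Id2, an inhibitor of basic helix-loop-helix factors, had a mean of 0.30 on its brighter spot (adjusted p = 0.0185) and 0.27 on its dimmer one (adjusted p = 0.266), each with all 6 arrays above 0. Crem, whose short product ICER represses cyclic AMP targets, had -0.50, 0.20 and 0.10 in one orientation and 0.49, 0.46 and 0.35 in the other. Its spot was dim, at the 7.07th intensity percentile, and was not the Crem spot used by the study, whose ratios are not given here. The study reported Crem as increased in the early hours of CRH.

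Among the 24 readable spots of the cyclic AMP and CREB targets, 3 were called higher and 0 lower, namely Odc1 and 2 Syt4 spots, against 0.146% of all spots called higher. One sign on all arrays was seen for 6 spots above 0 (4.63% of all spots) and for 0 below (2.33%), and the limma test passed 5 higher (2.85% of all spots) and 0 lower (2.53%). The median of the list was 0.01, against -0.02 over all spots. This and the other gene lists were drawn up with earlier results of these data known, so such counts describe the lists and do not test them. Of 15 spots of immediate early and AP-1 factors 0 were called, 2 passed the limma test above 0 (both of them the spots assigned to Fosl2) and the median was 0.02. Myc, on a spot at the 0.633th intensity percentile, had a mean of -0.45 with all arrays below 0, from -0.84 to -0.04 (adjusted p = 0.0921), and -1.16 once the 10th percentile of each channel was subtracted. Egr1 and Junb were readable on the 3 h arrays alone, with means of 0.03 and -0.07 and both signs among the arrays. Arc, Ier2, Jund, Klf10, Sik1 and Srf, readable in the same way, also had both signs. By contrast Btg2 and Nfil3, named here after their values were seen, had all arrays above 0, with means of 0.33 and 0.43.

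Polyamine and methionine metabolism had several members above 0. Mat2a, the enzyme that makes S-adenosylmethionine, had 0.59, 0.49 and 0.72 in the Cy3 orientation and 0.48, 0.46 and 0.48 in the Cy5 orientation on its dimmest spot, a mean of 0.54 (1.45-fold, adjusted p = 0.00108). The middle spot gave 0.45, with 0.76 in one orientation and 0.14 in the other, and the brightest, with orientations of opposite sign, gave 0.01. Srm, the spermidine synthase, had all 6 arrays between 0.18 and 0.76 and a mean of 0.41 that did not pass (adjusted p = 0.101). Azin1, which shields Odc1 from its antizyme, had 0.23 on its dimmer and -0.21 on its brighter spot, neither past the test. Of the 20 spots of the list 1 was called higher (0.146% of all spots), 5 had all arrays above 0 (4.63% of all spots) and 0 had all arrays below (2.33%), and the median was 0.04, against -0.02 over all spots.

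Hspa8, the constitutive member of the heat shock 70 family, gave the highest mean ratio among the genes named by their deposited name. Its brightest spot had 0.72, 0.49 and 0.57 in the Cy3 orientation and 0.80, 1.21 and 0.92 in the Cy5 orientation. Every array lay above 0, the Cy5 values above the Cy3 values, and the mean was 0.78 ± 0.065 (SE), 1.72-fold (adjusted p = 1.44e-08). A spot of nearly the same intensity followed with a mean of 0.45 (adjusted p = 0.00105), whereas the dimmest, at the 30.2th percentile, had 0.14 and mixed signs. 

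Other chaperones were above 0 by less than 1.5-fold. Stip1, which links the heat shock 70 and 90 proteins, ranged from 0.14 to 0.87 with a mean of 0.52 (adjusted p = 0.00111). Cct8, a subunit of the cytosolic chaperonin, ranged from 0.27 to 0.59 with a mean of 0.43 (adjusted p = 0.000425). Hspa5, the heat shock 70 protein of the endoplasmic reticulum, ranged from 0.27 to 0.44 with a mean of 0.37 (adjusted p = 0.000506), and the deposited ratios gave 0.20 for the same spot. Over the 37 spots of heat shock proteins and chaperones, 11 had all arrays above 0 (29.7%, against 4.63% of all spots) and 0 all below, with a list median of 0.14.

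Srxn1, deposited as neoplastic progression 3, had 0.45, 0.24 and 0.57 in one orientation and 1.18, 0.65 and 0.76 in the other. The mean of 0.64 was 1.56-fold (adjusted p = 0.000136), and the Cy5 orientation was the higher one. In the unfolded protein response 0 of 18 spots were called, and 3 passed above 0, Hspa5, Calr, a lectin chaperone of the endoplasmic reticulum, at 0.38 with 1 array at -0.09, and Chac1, an enzyme that degrades glutathione, at 0.51 (a clone-named spot added after its value was seen). Those that passed were 16.7% of the list, against 2.85% of all spots. The list median was 0.03, with 2 spots above 0 on all arrays and 2 below 0 on all (4.63% and 2.33% of all spots). Herpud1, a stress-inducible protein of the endoplasmic reticulum, had -0.23 on its brighter and -0.08 on its dimmer spot, neither past the test. Canx, the membrane-bound relative of Calr, had 0.23, 0.14 and 0.02 on its 3 spots.

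Ribosomal protein RNAs were mostly above 0. Rpl41, a very small protein of the large subunit, was the only one called: its ratios were 0.90, 0.95 and 0.90 in the Cy3 orientation and 0.51, 0.44 and 0.44 in the Cy5 orientation, with a mean of 0.69 (1.61-fold, adjusted p = 8.17e-06). The 2 orientations did not overlap although both lay above 0. Of 88 spots of cytosolic ribosomal proteins, 71 had a mean above 0 (80.7%, against 44.9% of all spots), 29 had all arrays above 0 and 0 all below. The limma test passed 30 above 0 (34.1%, against 2.85% of all spots) and 1 below (2.53% of all spots). A cDNA spot can also bind near-identical transcripts, so single members of such families, like those of Hspa8, Gapdh and the tubulins, are uncertain.

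On each of the 6 arrays the median of these 88 spots was above 0, at 0.27, 0.14 and 0.14 in the Cy3 orientation and at 0.13, 0.31 and 0.15 in Cy5. The medians of all spots on the same arrays lay between 0.00 and 0.01. Rpl10a had a mean of 0.53 on its brighter and -0.10 on its dimmer spot, Rps3 had 0.47 on its dimmer and 0.03 on its brighter spot, and Rps27l had 0.46.

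Translation factors followed with a smaller median of 0.12 over 62 spots. Of these 9 passed above 0 (14.5%, against 2.85% of all spots) and 1 below (2.53% of all spots). Eif3d, a subunit of the initiation factor that holds the small ribosomal subunit, had a mean of 0.49 on its brighter spot, where all arrays lay between 0.34 and 0.64 (adjusted p = 0.00559), and 0.13 on the dimmer. Eef1d, an exchange factor of elongation, had 0.39 and all arrays above 0. The 1 lower spot, of Eif2s2, had -1.51 in the Cy3 orientation and 0.84 in Cy5, with a mean of -0.34.

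Glycolytic enzymes had the highest list median, 0.20 over 27 spots. Tpi1, triosephosphate isomerase, had 0.83, 0.65 and 0.82 in one orientation and 0.22, 0.22 and 0.47 in the other, a mean of 0.54 (1.45-fold, adjusted p = 3.25e-05). The brighter spot of Gapdh and those of Aldoa and Pgk1 had means of 0.44, 0.43 and 0.42, each with all arrays above 0. The dimmer Gapdh spot had mixed signs, with orientation means of 0.61 and -0.07 and a mean of 0.27 (adjusted p = 0.0859). The study used Gapdh as a qRT-PCR reference and reported that CRH did not change it in these cells. In total 6 spots had all arrays above 0 (4.63% of all spots), 0 all below, 7 passed the limma test above 0 (2.85% of all spots) and 0 below it, and 0 were called. The list median on single arrays ran from 0.18 to 0.33.

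Subunits of the proteasome, the cell's protein-degrading complex, had a median of 0.14 over 47 spots. Psmb7, of the catalytic core, ranged from 0.36 to 0.76 with a mean of 0.54 (adjusted p = 0.000698), and Psmc5, an ATPase of the cap, had a mean of 0.50. Psmd4, a ubiquitin receptor of the cap, had 0.57, 0.19 and 0.02 on its 3 spots. The limma test passed 5 above 0 (10.6%) and 0 below, against 2.85% of all spots above and 2.53% below. Respiratory chain and ATP synthase subunits had a median of 0.10 over 77 spots with 6 above (7.79%) and 0 below. Mitochondrial ribosomal proteins had a median of 0.07 over 65 spots with 1 above (1.54%, under the share of all spots) and 2 below.

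These lists are brighter than the average spot, and calls were more common among bright spots. The median intensity percentile was 91.9 for cytosolic ribosomal proteins, 68.7 for glycolysis and 76.9 for chaperones. One sign above 0 was seen for 2.82% of the dimmest 4791 spots and for 6.14% of the brightest 4792. Among the spots called higher, 1, 7 and 13 fell in the dim, middle and bright class, and both lower ones in the bright class. The part of intensity in the list values was not tested.

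Neurod1, a factor that acts with Pitx1 on the Pomc promoter, was the only gene called lower on a spot with a measurable ratio. On its brighter spot it had -0.41, -0.18 and -0.22 in the Cy3 orientation and -1.28, -0.82 and -1.48 in the Cy5 orientation. All arrays lay below 0 with no overlap of the orientations, and the mean was -0.73 ± 0.086 (SE), 1.66-fold lower (adjusted p = 4.94e-06). The other spot was also below 0 on all arrays, with the Cy3 orientation lower, at -0.79, -0.80 and -0.87 in Cy3 and -0.12, -0.36 and -0.30 in Cy5, a mean of -0.54 (adjusted p = 0.000166).

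Rtn4r, the Nogo receptor, was the other spot called lower, but it read at the scanner limit on every 3 h array in at least 1 channel, and no ratio can be taken from it. In the list of corticotrope and secretory granule genes, 2 of 26 spots were called higher (Syt4) and 1 lower (Neurod1), against 0.146% and 0.0139% of all spots. In each direction 3 passed the limma test, against 2.85% of all spots above 0 and 2.53% below, and the list median was -0.03. Chgb had a mean of 0.37 with arrays from -0.25 to 1.15 (adjusted p = 0.159). Both readable spots of Cpe had means near 0, at 0.03 and -0.03, and Tbx19 had 0.17. 

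Several called genes have no part in these lists. Mmp7, matrilysin, had all arrays between 0.62 and 0.90, the narrowest range among the spots called higher, and a mean of 0.78 ± 0.084 (1.71-fold, adjusted p = 1.61e-06). Lyve1, deposited as extra cellular link domain-containing 1, ranged from 0.51 to 0.98 with a mean of 0.76 (1.70-fold, adjusted p = 1.65e-07). Both genes were above 1.5-fold in each orientation alone.

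Ly6e, a small protein anchored in the outer membrane, had 0.80, 0.81 and 0.90 in the Cy3 orientation and 0.26, 0.45 and 0.55 in the Cy5 orientation, a mean of 0.63. Nedd4l, a ubiquitin ligase that removes sodium channels from the membrane, had a mean of 0.59 on its brighter spot, which reached the scanner limit at 12 and 24 h only, and of -0.16 on its dimmer spot. Ppl, which ties intermediate filaments to cell junctions, had a mean of 0.63 from 0.32 to 0.89, yet its spot lay at the 1.53th percentile of intensity and gave 1.25 after subtraction of the 10th percentile.

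The remaining called spots carry clone names and were picked after their values were seen. Mpp7, a scaffold protein of cell junctions named through the clone 1110068J02, had the largest ratio of all: 1.46, 1.48 and 1.61 in the Cy3 orientation and 0.57, 0.83 and 1.11 in the Cy5 orientation. Its mean was 1.18 ± 0.119 (SE), 2.26-fold (adjusted p = 4.96e-07), and it was the 1 spot past 2-fold. Aspdh ranged from 0.58 to 1.22 with a mean of 0.82. The 2 unnamed ESTs had means of 0.90 and 0.71.

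A further 6 clone-named spots had means from 0.59 to 0.72. They were 4930555G01Rik, Misp3, 2610042L04Rik, 0610012G03Rik, Tpgs2, which belongs to a tubulin-modifying complex, and Spats2l. The 2610042L04Rik spot was the one of these most split by dye, at 1.14 in the Cy3 orientation and 0.22 in Cy5.

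Genes that the study took forward as candidates were within 1.5-fold at 3 h on all their readable spots. Since the study picked them from the same hybridisations, counting them adds no separate evidence. Of their 16 spots 0 were called, 4 had all arrays above 0 and 3 all below, and 5 passed the limma test above 0 and 4 below. Both Fosl2 spots, the dimmest and middle Mat2a spots and the spot assigned to Pebp1 made up the higher ones.

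Pebp1, an inhibitor of Raf kinase, has its ratios from a spot deposited as interleukin 17D, at 0.65 and 0.14 in the 2 orientations (mean 0.39, adjusted p = 0.00131). Cd3e, part of the CD3 signalling unit of T cells, had all 6 arrays below 0, from -0.60 to -0.20, and the same mean of -0.38 in each orientation (adjusted p = 0.000466). Its spot is deposited as similar to the CD3 epsilon chain, and in the study Cd3e fell outside the linear range of the qRT-PCR. Pex13, of the peroxisomal import machinery, had -0.009 in one orientation and -0.996 in the other, and Nf2, the tumour suppressor merlin, had -0.12 and -0.82. Their means were -0.50 and -0.47.

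The spot assigned to Malat1, a nuclear non-coding RNA, and deposited as receptor (calcitonin) activity modifying protein 2 had all arrays below 0 and a mean of -0.35 (adjusted p = 0.0105), whereas the other readable spot had 0.06. Acsl4, a fatty acid activating enzyme assigned to a spot deposited as expressed sequence AU018108, had -0.21 with all arrays below 0 (adjusted p = 0.264). Hmgcs1, which opens the mevalonate pathway, had 0.12 and 0.015, and Loxl3 had -0.08, with the orientations at opposite signs.

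Signalling and metabolic lists outside these groups held 0 called spots. In cAMP and G protein signalling, 52 spots had a median of -0.03, with 1 past the limma test above 0 (1.92%) and 2 below. Over all spots 2.85% passed above 0 and 2.53% below. Rgs4, which shortens G protein signals, had all arrays between -0.47 and -0.20 and a mean of -0.32 (adjusted p = 0.00559), and Gnao1 had -0.45 on its brightest spot, with orientations at -0.10 and -0.81, and values from -0.17 to 0.05 on its other 3 spots. The MAP kinase list had 2 above (6.9%) and 1 below of 29 spots. Dusp14, a MAP kinase phosphatase, was too dim on other arrays, yet on the 3 h arrays alone, as chosen after its values were seen, it ranged from 0.46 to 1.12 with a mean of 0.72.

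Cholesterol synthesis had a median of 0.10 over 24 spots, with 2 past the limma test above 0 (8.33%) and 0 below. The counts in this paragraph stand against 2.85% of all spots passing above 0 and 2.53% below, and the cell cycle share above 0, 2.78%, was near the former. Cyp51, the lanosterol demethylase, had 0.43 (adjusted p = 0.0126), 0.32 and -0.07 on its 3 spots. ER and Golgi transport had a median of 0.09 over 53 spots and 6 above to 0 below, led by Sec23b of the COPII coat at 0.42. Fatty acid metabolism (2 above, 1 below of 29), the circadian clock (0 above, 1 below of 16), histones (2 above, 0 below of 11) and the cell cycle list (1 above, 0 below of 36) had medians between -0.04 and 0.01. Neuronal and neuroendocrine differentiation factors (22 spots) had 1 called lower, Neurod1, with 1 past the limma test above 0 and 2 below, and a median of 0.004. Reference housekeeping genes had 4 above and 1 below of 26 spots, with a median of 0.08. The fuller fibroblast and leukocyte lists, with 12 and 6 spots, held 0 called spots and had 0 and 1 past the limma test, the latter Cd3e.

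How far 3 h differed from its neighbours was tested with limma on the dye-balanced means, each time point having its own untreated cells. Against 1 h, 1595 spots passed (11.1%), 844 higher at 3 h (5.87%) and 751 lower (5.22%), and 824 and 723 of these differed the same way in both orientations, while 20 of the lower ones lay at the scanner limit on every 3 h array. The 1 h arrays were quantified on another day than the 3 h arrays, so the time and the day cannot be told apart here. The mean ratios at 3 h and 1 h correlated at r = -0.307 across spots, and those at 3 h and 6 h at r = 0.188.

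Among the named genes Lyve1 showed the widest gap to 1 h. Its 6 arrays ran from -0.74 to -0.35 at 1 h with a median of -0.61, and from 0.51 to 0.98 at 3 h with a median of 0.76, with no overlap and a difference of 1.35 (adjusted p = 3.73e-09). Rpl41 ran from -0.78 to -0.53 at 1 h and from 0.44 to 0.95 at 3 h, a difference of 1.35 (adjusted p = 3.16e-08). Of all spots, 244 (1.7%) had every 3 h array above every 1 h array and 61 (0.424%) every one below, and 10 of the 21 spots called higher were among the former.

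Dad1, a subunit of the enzyme that transfers sugar chains to new proteins, differed by 1.16 and 0.97 on its 2 spots. Nedd8, a ubiquitin-like modifier, differed by 1.14 on its brighter spot but by -0.14 on its dimmer one. The alpha-tubulin Tuba1c differed by 1.12 on its dimmer spot and by 0.11 on its brighter one.

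Genes lower at 3 h than at 1 h were led by Abcc3, a transporter of organic anions, at -1.07, Neurod1 at -1.003, Cidec, a lipid droplet protein, at -0.91, Fh1, the fumarase, at -0.90, Mc2r, the ACTH receptor, at -0.87 and 1 of 3 spots of Chd4, a chromatin remodeller, at -0.87, its other spots being at -0.33 and 0.21. Apart from Neurod1, these spots had opposite signs in the 2 orientations at 3 h. Fh1, for instance, had orientation means of -1.61 and 0.57 at 3 h, against 0.03 and 0.73 for 1 h. The Neurod1 value is that of its brighter spot, and the dimmer one differed by -0.75 (limma, adjusted p = 8e-05). The brighter Fosl2 spot ran the other way from Lyve1, from 1.09 to 1.70 at 1 h and from 0.36 to 0.66 at 3 h, a difference of -0.82 (adjusted p = 7.09e-05). The dimmer Fosl2 spot differed by -0.43 and did not pass (adjusted p = 0.0899), and its arrays at 1 h and 3 h overlapped.

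The gene lists of protein synthesis and energy metabolism had opposite medians at 1 h and 3 h. Cytosolic ribosomal proteins had a median of -0.17 at 1 h and 0.20 at 3 h, and 47 of the 88 spots passed the test as higher at 3 h (53.4%) and 3 as lower. On single arrays the median ran from -0.17 to -0.06 at 1 h and from 0.13 to 0.31 at 3 h, without overlap. For glycolysis 11 of 27 passed as higher and 0 as lower, for the proteasome 18 of 47 and 1, and for chaperones 12 of 37 and 0, against 5.87% of all spots higher and 5.22% lower. Reference housekeeping genes had the same pattern, with 10 of 26 spots higher and 1 lower and medians of -0.23 at 1 h and 0.08 at 3 h.

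In the brightest 4792 spots, 10.2% passed as higher than at 1 h and 11.4% as lower, against 2.21% and 1.61% in the dimmest 4791. The cAMP and CREB target list had 2 higher and 0 lower of 24, and the immediate early list 0 higher and 2 lower of 15. All kept spots had medians of 0.01 at 1 h and -0.02 at 3 h.

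**Figure D3:**
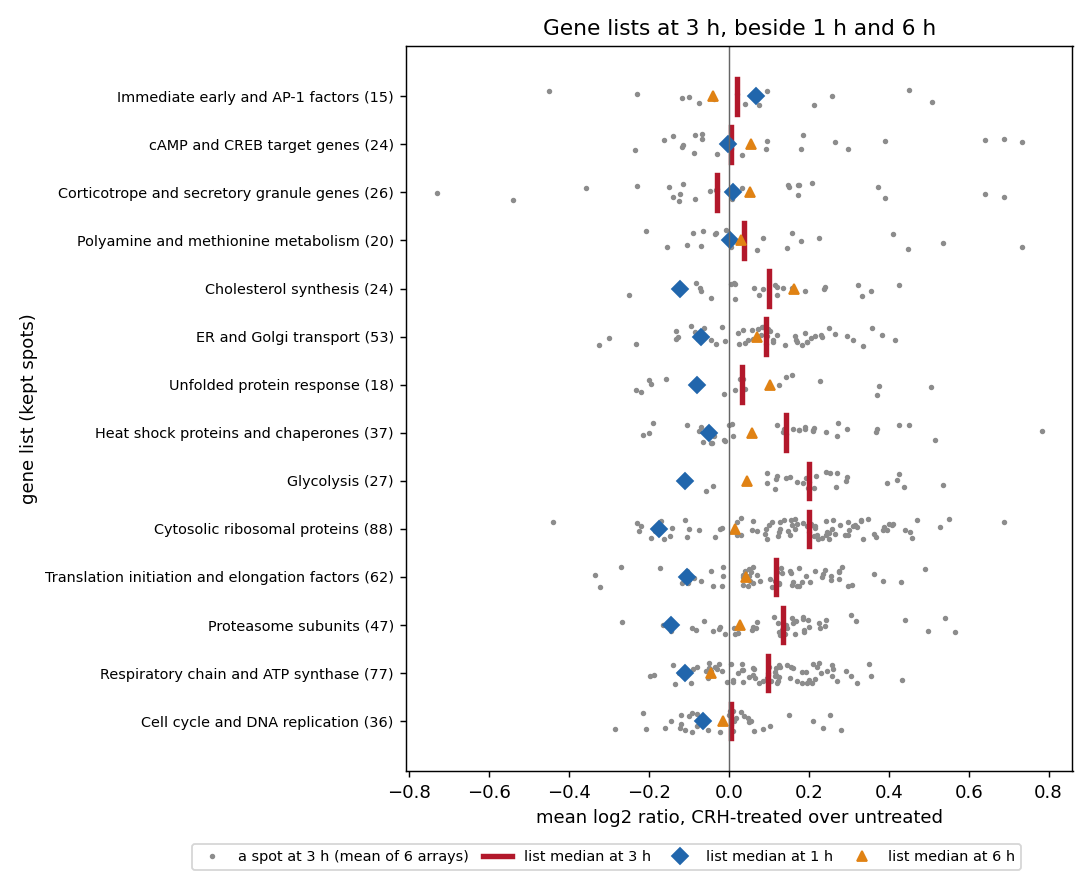
Mean log2 ratio at 3 h of each readable spot (grey points) in 14 gene lists, with the list median at 3 h (red bar), 1 h (blue diamond) and 6 h (orange triangle). Cytosolic ribosomal proteins and glycolysis sit at 0.20 at 3 h with their 1 h medians below 0 and their 6 h medians nearer 0, and cyclic AMP targets are spread around 0 with 3 spots past 0.6.

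Against 6 h, whose arrays were quantified on the same day, the test passed 95 spots (0.661%), 72 higher at 3 h (0.501%) and 23 lower (0.16%). Of the 23 lower, 11 read at the scanner limit on every 3 h array, and once every spot that touched the limit on any array was left out, 22 spots passed, 13 higher and 9 lower. The deposited ratios gave 21.

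The brightest Hspa8 spot ran from -0.42 to 0.45 at 6 h with a median of 0.08 and from 0.49 to 1.21 at 3 h, a difference of 0.75 (adjusted p = 7.3e-05). This spot was below the scanner limit on all arrays at 1, 3 and 6 h but reached it on 3 arrays at 12 h and on 6 at 24 h, so it is among the spots left out of the count of 22, as are Ckmt1 and Bcam below. Lyve1 differed by 0.63, Rpl41 by 0.65, Ly6e by 0.67 and Srxn1 by 0.67, each with an adjusted p under the threshold. The dimmest Mat2a spot ran from -0.73 to 0.12 at 6 h and from 0.46 to 0.72 at 3 h, again without overlap, with a difference of 0.66 (adjusted p = 0.0177). Over all spots 63 (0.438%) had every 3 h array above every 6 h array and 16 (0.111%) every one below, and 3 called spots were among the former.

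Other genes higher at 3 h than at 6 h were Vwa1, a matrix protein, by 0.86, Cdx2, an intestinal homeobox factor, by 0.75, Ckmt1, a mitochondrial creatine kinase, by 0.69 and Bcam, a laminin receptor, by 0.68. The Cdx2 spot was dim, at the 1.66th intensity percentile, with mixed signs at 3 h from -0.03 to 0.80, and passed narrowly (adjusted p = 0.049). The Vwa1 spot had 0.44 in one orientation and -1.41 in the other at 6 h. Among lower genes with no 3 h array at the scanner limit, Mnt, a partner of Max, differed by -0.70, Abcc3 by -0.69, Acsl4 by -0.65, the lower Malat1 spot by -0.60 and the brighter Hmgcs1 spot by -0.46. Odc1, Syt4 and Pomc did not pass: their differences were 0.22 (adjusted p = 0.562), 0.03 (adjusted p = 0.976, the higher spot) and 0.42 (adjusted p = 0.071).

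**Figure D4:**
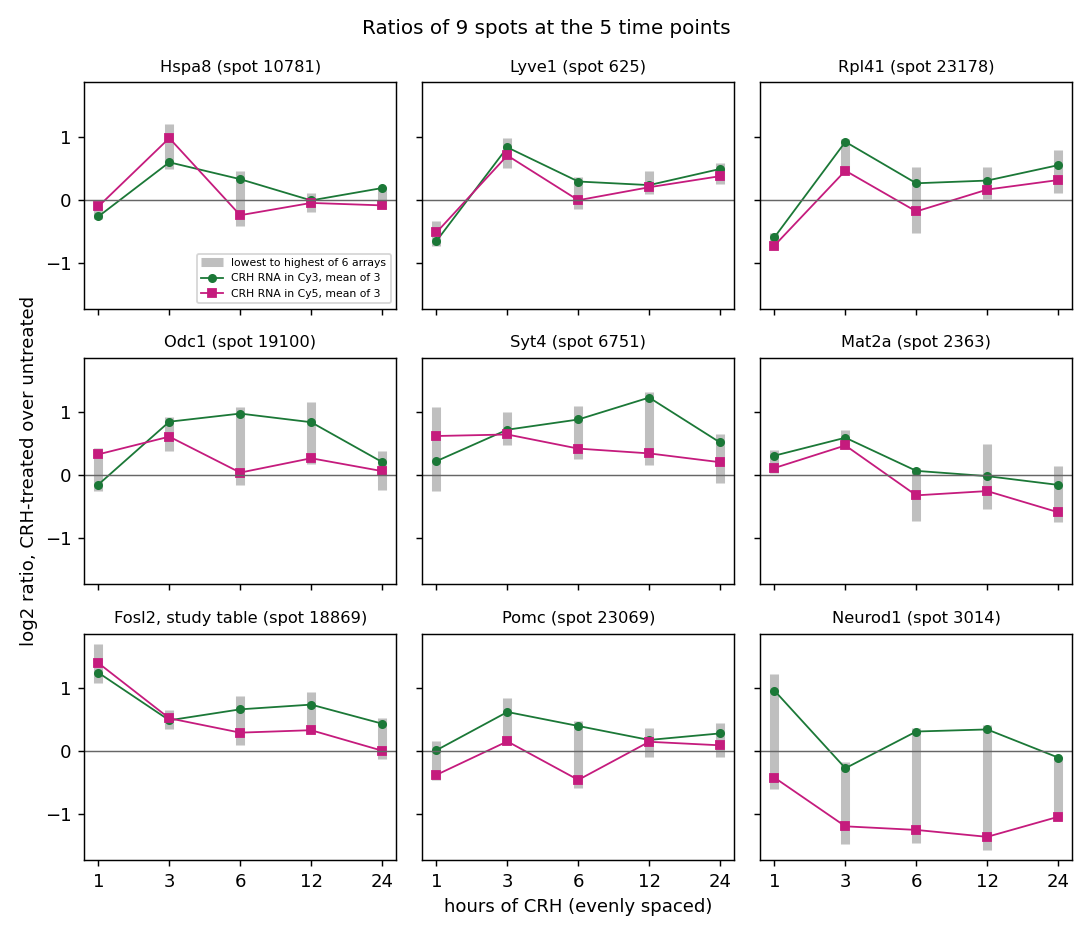
Log2 ratio (treated over untreated) against hours of CRH (evenly spaced) for 9 spots, with grey bars from the lowest to the highest of 6 arrays, round markers for the mean of 3 arrays with the treated sample labelled in Cy3, and square markers for the mean of the 3 others. Hspa8 (with arrays at the scanner limit at 12 and 24 h) and Lyve1 stand highest at 3 h in both orientations, Odc1 and Syt4 stay above 0 at 6 and 12 h on average, and Neurod1 keeps a wide gap between orientations.

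Over the whole course Odc1 had mean ratios of 0.10, 0.73, 0.51, 0.56 and 0.14 at 1, 3, 6, 12 and 24 h, and the higher Syt4 spot had 0.43, 0.69, 0.66, 0.79 and 0.37. The brightest Hspa8 spot had -0.19 at 1 h and 0.04 at 6 h, and its later values include arrays at the scanner limit. The brighter Neurod1 spot was at 0.27 at 1 h and between -0.57 and -0.47 after 3 h, but its orientations had opposite signs at 1, 6 and 12 h. They were 0.96 in Cy3 and -0.42 in Cy5 at 1 h, 0.31 and -1.25 at 6 h, and 0.35 and -1.36 at 12 h.

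When the 5 time points served as the independent units, limma on the averages, 3 h minus the mean of the other 4, passed 0 spots (0%). At an unadjusted p under 0.05 there were 549 of 14375 spots, fewer than the 5% that would fall there if no spot differed. The spread in this test came from the other time points, and the lone 3 h average was taken to vary as they did. Mpp7 came nearest, with a difference of 1.08 (adjusted p = 0.0925), and the brightest Hspa8 spot followed among the genes named here at 0.82 (adjusted p = 0.655), with the scanner limit reached at 12 and 24 h as above. By the rule of size and sign, 1 h had 14 spots higher and 14 lower (0.0974% each), 6 h 5 higher (0.0348%) and 0 lower, 12 h 18 (0.125%) and 2 (0.0139%), and 24 h 15 (0.104%) and 7 (0.0487%).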

How the data were processed

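The authors deposited, per array, spot and local background intensities in Cy3 and Cy5 from fixed-circle quantification of mouse cDNA arrays with 24192 spots in 48 print-tip blocks, without subtraction or normalization, and a table of log2 ratios for 12593 spots, for which the authors had erased the lowest 10% and fitted loess by print tip. Columns of the authors' own tests were not used. From the intensities, 1170 empty and 192 control spots were left out, then spots among the dimmest 10% of either channel on any of 30 arrays. A symmetric loess curve (span 0.75, 4 iterations) was subtracted in each block, with no background subtraction and with saturated spots kept, and the sign was turned to CRH-treated over untreated. The result correlated with the deposited ratios at r from 0.982 to 0.992 on the 3 h arrays. Removing dim spots and loess centring can hide weakly expressed genes and any shift common to all genes.

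Spots were named from their deposited descriptive name, from the study's own spot table or, for clone names, through RefSeq synonyms; 5153 of the kept spots had a symbol, 751 of them not through a clone. Named genes were the 12 highest and 12 lowest called spots, the study's candidates, up to 4 members of each of 26 gene lists with the largest ratios, and up to 6 genes in each direction past each test against other times, with their readable spots; not every gene or spot so chosen is printed, and clone-named spots and ESTs were left out of that rule. Members and lists were chosen with earlier results of these data known.

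Tests used limma 3.58.1 in R 4.3.3 with time by dye orientation as cell means and Benjamini-Hochberg adjustment over 14375 spots; they were tested on simulated data. All 6 arrays of a time point come from 1 pair of extracts, so p-values measure only technical spread. Replicate numbers did not pair arrays: over 24 pairs of same-numbered arrays, deviations correlated at r from -0.025 to 0.052. Alternatives covered background, dim and saturated spots, loess, deposited ratios, each array left out, the size rule and the model.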

Additional observations from a re-analysis of the deposited data

Results flagged for a closer look

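Among 22 called spots with a measurable ratio, 0 had a single array set apart from the other 5. What stood out instead was that the ratio at 3 h differed from that at 1 h or 6 h by the limma test over hybridisations. In that test each time point is 1 pair of extracts. The spots had been called on the same 3 h values, and that choice favours such differences. Over all spots 11.1% differed from 1 h and 0.661% from 6 h. Differences below are in log2 units, 3 h minus the other time.

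Lyve1 was 1.35 higher than at 1 h and 0.63 higher than at 6 h. Rpl41 was 1.35 and 0.65 higher. Mpp7 was 1.19 and 1.16 higher. Ly6e was 1.03 and 0.67 higher. The brightest Hspa8 spot was 0.97 and 0.75 higher. The 0610012G03Rik spot was 0.87 and 0.51 higher. The brighter Nedd4l spot was 0.73 and 0.42 higher. Mmp7 was 0.59 higher than at either time. Srxn1 was 0.51 higher than at 1 h and 0.67 higher than at 6 h.

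Against 1 h alone, 4930555G01Rik was 0.77 higher, Tpgs2 0.76, Spats2l 0.73, Misp3 0.65, Odc1 0.64, Ppl 0.59 and 2610042L04Rik 0.49. The brighter Neurod1 spot differed from 1 h by -1.003.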

How the results depend on the processing

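The called spots were kept in full when the background was treated in 2 other ways, when dim spots were left in and when dimness was judged on the 3 h arrays, but 17 of 23 were kept with 1 loess curve per array, 15 of the 19 measured with the deposited ratios and 19 of 20 without spots at the scanner limit; leaving out 1 array kept 20 to 22. No called named spot changed sign in any of these settings, and of 2459 recomputed values of named spots 25 moved by 1 SD or more. Spats2l, Tpgs2 and Nedd4l were the called spots lost most often when 1 array was left out, kept in 3, 4 and 4 of 6 settings.

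The number of called spots was 93 after subtraction of the 10th percentile of each channel, 45 with dim spots left in, 1 at 2-fold and 10 with 1.5-fold asked of each orientation. Over hybridisations at 3 h, the test passed 488 spots with the deposited ratios, 359 with dimness judged on the 3 h arrays and 1346 with the methods' linear model at p under 0.01, against 925 after Benjamini-Hochberg. Against 6 h it passed 59 with dim spots left in, 21 with the deposited ratios and 22 without spots at the scanner limit. Leaving out each 3 h array in turn gave 26 to 32 called spots, 444 to 594 over hybridisations, 1228 to 1456 against 1 h, 54 to 102 against 6 h and 0 to 2 against the mean of the other time points; the sign rule then asks for 5 arrays instead of 6. The count over hybridisations fell by more than 1.5 times without replicate 1, 4 or 5 (444, 458 and 461), and that against 6 h without replicate 1 or 5 (57 and 54). The cause of the other shifts was not tested. With the replicate number as a block, 703, 1537 and 78 spots passed at 3 h, against 1 h and against 6 h, and the pairing check gave no reason to pair arrays. The number of arrays and the single pair of extracts limit what these ratios can show.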
